A study of Homo sapiens with 6 samples.

Results

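The latent TGF-beta binding proteins (LTBP1 to LTBP4), the fibrillins (FBN1 and FBN2), the ligands TGFB1 and TGFB2, the receptor TGFBR2 and the decoy receptor BAMBI were examined in SUM159 breast cancer cells after silencing of spinophilin. Of these 10 listed genes, 7 carried a symbol in the platform annotation of the array, on 8 of its 53617 transcript clusters, against 14884 genes with a symbol in all. TGFB1, TGFB2 and TGFBR2 were not analysed here. A gene with more than 1 transcript cluster, a group of probes spread along a transcript and summarised to a single value, was represented by the cluster with the highest mean over the arrays. This concerned LTBP2 alone among these genes. The set was chosen by what these arrays had shown for silenced against control cells, LTBP1 first, so the members' log2 fold changes are a description, with standard errors and without p-values.

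TGF-beta is secreted in an inactive form, in which its own propeptide wraps the growth factor. Latent TGF-beta binding proteins attach to this propeptide and anchor the complex in the extracellular matrix, largely on microfibrils, whose backbone is fibrillin. Once released, the ligand binds a pair of receptor kinases that phosphorylate SMAD transcription factors, and BAMBI, a receptor-like protein without a kinase domain, dampens this signal. In breast cancer the pathway is known both for restraining growth of epithelial cells and for promoting invasion.

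Both groups consisted of SUM159 cells, used in the study as a model of basal-like breast cancer and kept in medium with insulin and hydrocortisone, transduced with lentiviral particles and selected with puromycin. Silenced cells expressed an shRNA against spinophilin (PPP1R9B), a scaffold protein that binds protein phosphatase 1 and actin, and control cells expressed a scrambled shRNA. Each group had 3 arrays, labelled 1, 2 and 2d, and no source says what the letter d means. A single shRNA sequence was used, no source says whether the cells of a group were transduced separately for each sample, and the level of spinophilin was not analysed here. Array medians lay between 5.19 and 5.23 in log2 units. Pairs of arrays within a group differed with an SD of 0.267 to 0.306 over all transcript clusters, and pairs across groups with an SD of 0.290 to 0.328. Precision is limited by the number of arrays.

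Silenced cells had a higher level of LTBP1 and lower levels of FBN1 and BAMBI than control cells. LTBP1 was 1.80-fold higher, BAMBI was 1.58-fold lower and FBN1 was 1.56-fold lower, and in each of these genes the 3 silenced arrays lay apart from the 3 control arrays. LTBP2 was lower by a smaller amount, 1.16-fold. LTBP3, LTBP4 and FBN2 had log2 fold changes between -0.01 and 0.05, with overlapping groups.

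The sequences before the start of LTBP1 and of BAMBI are shown because these genes had the largest difference in each direction among the members. They come from RefSeq on GRCh38.p14, each covers the 250 bases before the annotated start, and capitals mark the motifs searched for on both strands. Capitals mark CAGAC, the short motif bound by SMAD proteins, which reads GTCTG on the other strand. They also mark TGACGTCA, the full cAMP response element, in LTBP1 and GGGCGG, the GC box, in BAMBI.
LTBP1, chr2:32946703-32946952, plus strand: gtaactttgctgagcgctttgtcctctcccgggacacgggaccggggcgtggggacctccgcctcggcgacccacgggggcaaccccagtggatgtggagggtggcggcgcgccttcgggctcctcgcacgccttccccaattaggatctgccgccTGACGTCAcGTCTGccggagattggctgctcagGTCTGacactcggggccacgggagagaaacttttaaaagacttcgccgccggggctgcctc
BAMBI, chr10:28677271-28677520, plus strand: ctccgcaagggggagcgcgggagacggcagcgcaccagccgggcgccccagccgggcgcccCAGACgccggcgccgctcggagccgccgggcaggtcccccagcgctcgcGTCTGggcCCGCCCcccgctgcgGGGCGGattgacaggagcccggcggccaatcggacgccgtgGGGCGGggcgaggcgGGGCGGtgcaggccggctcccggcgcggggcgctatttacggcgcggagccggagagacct

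Both windows held 2 copies of CAGAC, a motif found in 38.0% of 35114 such windows. The LTBP1 window held 1 copy of TGACGTCA, which 1.65% of all windows hold, and no GC box. The BAMBI window held 4 copies of GGGCGG, found in 42.6% of windows, and no TGACGTCA. The AP-1 site TGANTCA and the TATA box TATAAA, found in 6.57% and 10.7% of windows, were in neither. The motifs did not overlap each other in these windows. The G+C content was 66.4% before LTBP1 and 81.2% before BAMBI, where the median window has 58%. The table lists 3 starts for LTBP1, and the windows before its downstream starts held 1 copy of CAGAC each and a G+C content of 45.2% and 47.6%. The array has 1 named transcript cluster for the gene, so its values do not tell these starts apart. The window before FBN1 held none of CAGAC, TGACGTCA and GGGCGG. A match describes the letters and not the binding of a factor.

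LTBP1, the founding member of its family and a carrier of the latent TGF-beta complex, was measured by transcript cluster 16878947. Its log2 expression was 5.65, 5.70 and 5.83 on control arrays 1, 2 and 2d, and 6.74, 6.62 and 6.37 on silenced arrays 1, 2 and 2d. The silenced array closest to the controls, 2d, still lay 0.55 above the highest control array. The means were 5.73 ± 0.089 in control cells and 6.58 ± 0.19 in silenced cells (SD, n = 3 each), and the log2 fold change was 0.85 (standard error 0.12). This increase was the 37th largest among 14884 named genes. The spread within groups, 0.148 as a pooled SD, was close to the median of all transcript clusters, 0.140.

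LTBP2, which binds fibrillin but is known not to carry latent TGF-beta, was measured by a pair of transcript clusters of similar brightness that differed from each other. On the brighter cluster, 16794719, the log2 expression was 6.13, 6.10 and 6.18 on control arrays and 5.93, 5.95 and 5.88 on silenced arrays, in the order 1, 2 and 2d. The groups did not overlap on this cluster, and the log2 fold change was -0.22 (standard error 0.076). Its pooled SD of 0.041 was smaller than that of all but 3.11% of transcript clusters. On the other cluster, 16786467, control arrays had 6.06, 5.95 and 6.14 and silenced arrays had 5.94, 5.84 and 6.22. Here the groups overlapped, and the log2 fold change was -0.05 (standard error 0.12). Averaged over both clusters, the log2 fold change was -0.13.

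LTBP3, a carrier of latent TGF-beta known from bone and teeth, had a log2 expression of 5.72, 5.69 and 6.04 on control arrays and of 5.82, 5.88 and 5.91 on silenced arrays. All 3 silenced arrays lay within the range of the controls, and the log2 fold change was 0.05 (standard error 0.11). LTBP4, which is known for its part in elastic fibre assembly, had 5.60, 5.56 and 5.73 on control arrays and 5.76, 5.57 and 5.61 on silenced arrays. Its groups overlapped, and the log2 fold change was 0.02 (standard error 0.091).

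FBN1, which encodes fibrillin-1, the main fibrillin of adult microfibrils and the gene mutated in Marfan syndrome, was measured by transcript cluster 16808793. Its log2 expression was 7.16, 6.98 and 6.84 on control arrays 1, 2 and 2d, and 6.38, 6.41 and 6.24 on silenced arrays 1, 2 and 2d. The highest silenced array lay 0.42 below the lowest control array. The means were 6.99 ± 0.16 in control cells and 6.35 ± 0.090 in silenced cells (SD, n = 3 each), and the log2 fold change was -0.65 (standard error 0.11). FBN1 had the 32nd largest decrease among the named genes.

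FBN2, the fibrillin most prominent in developing tissue, had a log2 expression of 4.43, 4.19 and 4.22 on control arrays and of 4.22, 4.28 and 4.32 on silenced arrays. The groups overlapped and the log2 fold change was -0.01 (standard error 0.094). Only 31.7% of all transcript clusters had a lower mean than FBN2, and the deposited values come without a detection call, so a change of a dim transcript may be compressed.

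BAMBI was measured by transcript cluster 16703563. Its log2 expression was 5.86, 5.48 and 5.54 on control arrays 1, 2 and 2d, and 4.96, 5.18 and 4.76 on silenced arrays 1, 2 and 2d. Silenced array 2 lay closest to the controls, 0.30 below control array 2. The means were 5.63 ± 0.21 in control cells and 4.97 ± 0.21 in silenced cells (SD, n = 3 each), and the log2 fold change was -0.66 (standard error 0.15). This was the 29th largest decrease among the named genes. BAMBI had the widest spread within groups of the 7 genes, with a pooled SD of 0.209. Of all transcript clusters, 52.1% had a lower mean than BAMBI. Its silenced values all lay below the array medians of 5.19 to 5.23.

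**Figure D1:**
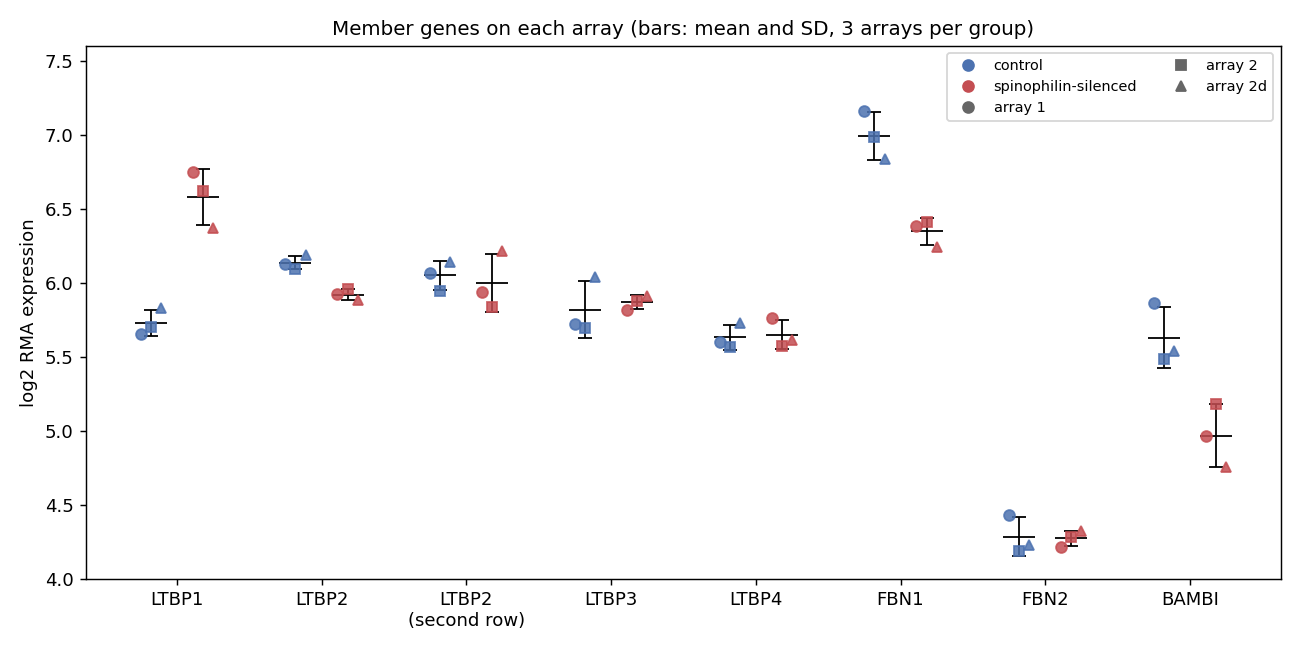
The log2 expression of each member gene (vertical axis) is plotted for 3 control and 3 spinophilin-silenced arrays, with the mean and SD of each group as bars and the array label as the symbol. The groups are apart for LTBP1, the brighter LTBP2 cluster, FBN1 and BAMBI, and they overlap for the other LTBP2 cluster, LTBP3, LTBP4 and FBN2.

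The counts over the 7 genes depended on the criterion. At a limma p under 0.05 after adjustment, 0 of the 7 genes passed, where 0.222% of named genes did. At an unadjusted p under 0.05, 4 of the 7 passed, against 6.72% of named genes. By the thresholds of the study's methods, an unadjusted p under 0.05 together with at least 1.5-fold, 3 of the 7 passed, namely LTBP1, FBN1 and BAMBI, against 0.873% of named genes. The groups did not overlap for 4 of the 7, against 14.2% of named genes. Of these, 1 was higher in silenced cells, as were 6.55% of named genes, and 3 were lower, as were 7.67%. Because the members were chosen with this comparison known, nothing is read from these shares. The median log2 fold change of the 7 genes was -0.01, as it was over all named genes.

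The direction of LTBP1, LTBP2, FBN1 and BAMBI was the same in each of the 19 alternative settings tried for each gene. For most settings this was fixed in advance. A change of variance model leaves the fold change as it is, and leaving out an array cannot reverse groups that do not overlap. With 1 array left out at a time, the log2 fold change was 0.77 to 0.96 for LTBP1, -0.72 to -0.56 for FBN1 and -0.77 to -0.54 for BAMBI. Control array 1 had the highest level of both FBN1 and BAMBI, and without it these genes were below 1.5-fold, at -0.56 and -0.54, so that only LTBP1 met the thresholds of the study's methods. Without silenced array 2d, BAMBI was at -0.56 and LTBP1 and FBN1 met them. LTBP1, which was chosen by this same comparison, passed the adjusted threshold in 5 of its 19 alternatives. It passed in 0 of the 6 that left out an array. These counts describe the settings and are not a test of the gene.

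**Figure D2:**
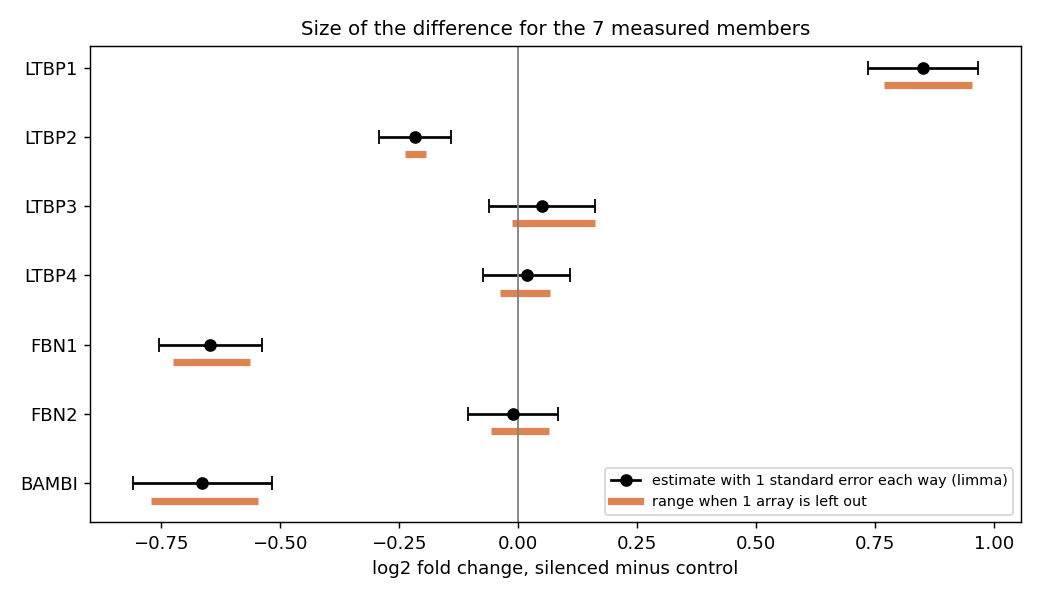
The log2 fold change of silenced against control cells (horizontal axis) is shown for the 7 measured members, as the limma estimate with 1 standard error to each side and as the range when 1 array is left out. LTBP1 lies at 0.85, FBN1 at -0.65 and BAMBI at -0.66, and the ranges of LTBP3, LTBP4 and FBN2 include 0.

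Other genes of the TGF-beta network were counted in 7 lists written by their known roles, without the members. Earlier results of these data were known when the lists were chosen, so nothing is read from their shares. Of 143 listed genes, 91 were measured, and 0 of these passed an adjusted p under 0.05 from limma in either direction. At an unadjusted p under 0.05, 9 of the 91 passed, which is 9.89% beside 6.72% of all named genes. The groups did not overlap for 22 of the 91, with 10 higher and 12 lower, which is 24.2% beside 14.2% of named genes. By list, this was 2 of 16 ligands (12.5%), 1 of 2 receptors, 4 of 15 SMADs and regulators (26.7%), 2 of 9 genes of latent TGF-beta release (22.2%), 4 of 21 genes of microfibrils and elastic fibres (19.0%), 6 of 16 soluble antagonists (37.5%) and 3 of 12 responding genes. The median log2 fold change was -0.001, beside -0.01 for all named genes. By the thresholds of the study's methods 2 of the 91 passed, SOST and VCAN.

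Among ligands of the family, 16 were measured and all lay between -0.20 and 0.16 on the log2 scale. NODAL, an embryonic ligand, and BMP4, a bone morphogenetic protein, were at these ends, with log2 fold changes of -0.20 (standard error 0.086) and 0.16 (standard error 0.14). Of the receptors, 2 of 13 were measured. ACVRL1, a type I receptor of endothelial cells, was at -0.19 (standard error 0.098), and ENG, its co-receptor endoglin, had -0.11 (standard error 0.13). Of the SMADs and their regulators, 15 were measured, with log2 fold changes of -0.19 to 0.28. The ends were SMAD2, which carries the TGF-beta signal to the nucleus, at -0.19 (standard error 0.074), and SMAD6, an inhibitory SMAD, at 0.28 (standard error 0.20). None of these 33 genes reached 1.5-fold.

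Of the genes that release latent TGF-beta or hold it in the matrix, 9 were measured. THBS1, which encodes thrombospondin 1, an activator of the latent complex, had 10.80, 10.64 and 10.76 on control arrays and 11.43, 11.21 and 11.14 on silenced arrays. The silenced arrays all lay above the controls, and the log2 fold change of 0.53 (standard error 0.10) did not pass (adjusted p = 0.197 from limma). THBS2, its relative, had a log2 fold change of 0.22 (standard error 0.15) with overlapping groups.

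Of the genes of microfibrils and elastic fibres, 21 were measured, with 11 above 0, and the largest differences were decreases. VCAN, which encodes versican, a proteoglycan that binds fibrillin, had 7.984, 7.771 and 8.295 on control arrays and 7.065, 6.996 and 7.572 on silenced arrays. All 3 silenced arrays lay below the controls, with array 2d the highest in both groups, and the log2 fold change of -0.81 (standard error 0.19) did not pass (adjusted p = 0.320 from limma). FBLN5, fibulin 5 of elastic fibres, had 7.32, 7.29 and 7.43 on control arrays and 6.93, 6.76 and 7.07 on silenced arrays. Its groups were apart as well, and the log2 fold change was -0.43 ± 0.10 (standard error), which did not pass (limma, adjusted p = 0.322). The list as a whole had a median of 0.0009, and the groups did not overlap for 4 of its 21 genes, 1 higher and 3 lower, which is 19.0% beside 14.2% of named genes.

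Of the soluble antagonists of the family, 16 were measured. SOST, which encodes sclerostin, an inhibitor of Wnt signalling first described as a BMP antagonist, had 6.45, 7.02 and 6.92 on control arrays and 7.92, 7.52 and 8.03 on silenced arrays. The groups did not overlap, and the 2.04-fold difference (log2 fold change 1.03, standard error 0.19) did not pass (adjusted p = 0.165 from limma). FSTL1, a follistatin-like glycoprotein, was at 0.30 on this scale (standard error 0.073) with groups apart and did not pass (limma, adjusted p = 0.320).

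Of 29 listed genes known to respond to TGF-beta, 12 were measured, with log2 fold changes of -0.19 to 0.49 and 8 above 0. CCN2, the connective tissue growth factor gene, had 10.61, 10.48 and 10.47 on control arrays and 11.05, 11.30 and 10.70 on silenced arrays. The silenced arrays lay above the controls, array 2d by the smallest step, and the log2 fold change of 0.49 (standard error 0.15) did not pass (adjusted p = 0.510 from limma). TPM1, a tropomyosin gene, had a log2 fold change of 0.22 (standard error 0.11).

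**Figure D3:**
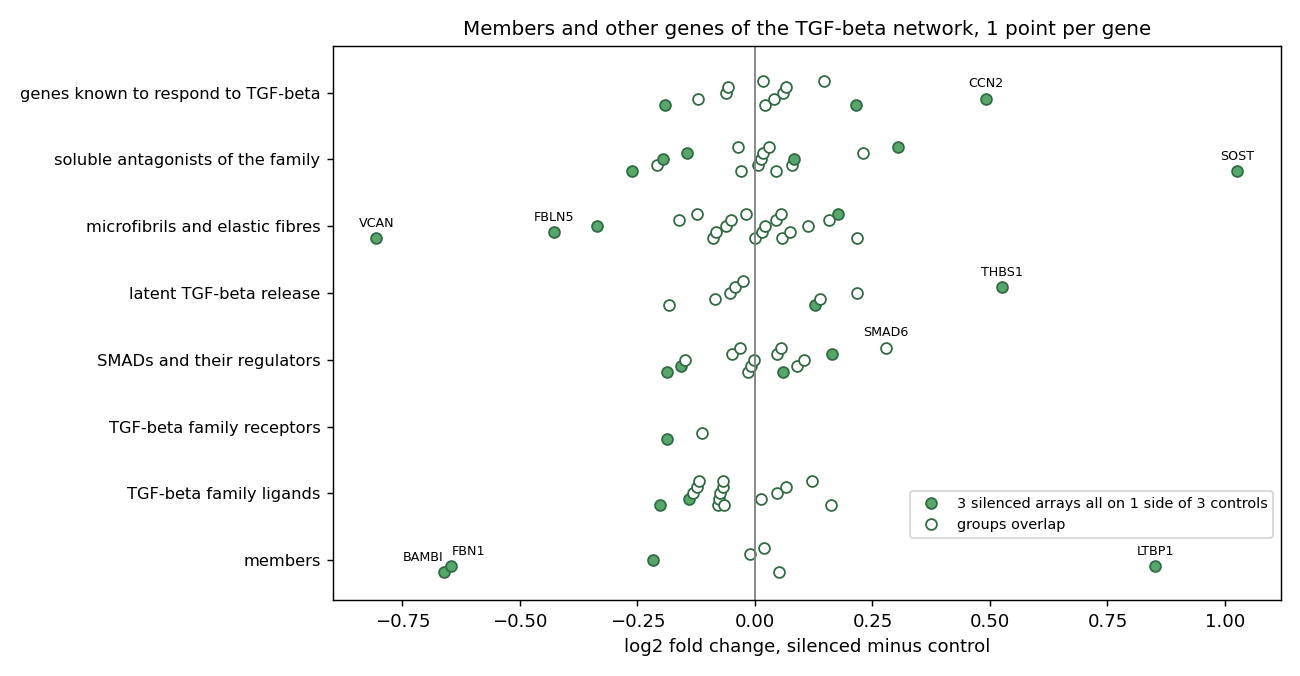
Each point is the log2 fold change of 1 gene, silenced against control cells (horizontal axis), for the 7 measured members and the 7 lists of the TGF-beta network, and filled points mark genes whose groups do not overlap. Most genes lie close to 0, with LTBP1 and SOST at the right and VCAN, BAMBI and FBN1 at the left.

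The genes whose values over the 6 arrays were most like those of LTBP1 were ZNF239, UGT8, SPAG1, TM4SF18 and PATJ, out of 14877 named genes compared. Likeness was measured as the root mean square difference from LTBP1 after each gene was centred on its mean of the 6 arrays, and it was 0.123, 0.124, 0.124, 0.147 and 0.154 log2 units in this order. ZNF239, a zinc finger gene, had a log2 fold change of 0.93, UGT8, an enzyme of galactolipid synthesis, had 0.66, and PATJ, a cell polarity gene, had 0.74. SPAG1 had 0.61 and TM4SF18 had 0.70. In ZNF239, UGT8, SPAG1 and TM4SF18, as in LTBP1, silenced array 2d was the lowest of the silenced arrays, and in PATJ it was not. A likeness of this kind over 6 arrays mostly reflects the difference between the groups.

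**Figure D4:**
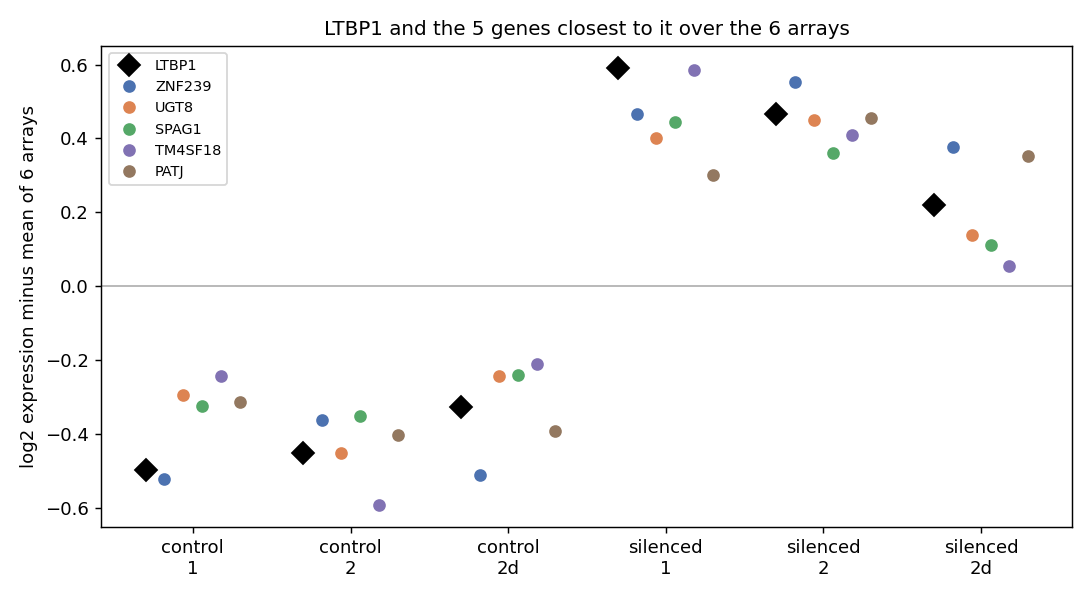
Log2 expression minus each gene's mean of the 6 arrays (vertical axis) is plotted by array for LTBP1 (diamonds) and the 5 genes closest to it (circles). In all 6 genes the control arrays lie below 0 and the silenced arrays above it, and LTBP1 spans 0.85 between the group means.

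The labelled cell type was compared with marker genes. VIM, CD44 and AXL, which mark basal-like and mesenchymal breast cancer cells, were brighter than 99.8%, 96.1% and 90.3% of all transcript clusters, whereas KRT5 and KRT14, the basal keratins, were brighter than 39.0% and 38.2%. The luminal list was mixed: ESR1 and PGR, the hormone receptors of luminal cells, were brighter than 31.9% and 23.1%, while KRT18, XBP1, TFF3 and GATA3 were brighter than 90.1%, 87.9%, 75.3% and 71.4%. Brightness also depends on the probes, so these shares are a rough guide. For the luminal list, with all 12 genes measured, the summed level was 10.04 to 10.10 in control cells and 10.01 to 10.14 in silenced cells in log2 units. The fibroblast list, whose cells are rich in fibrillin and LTBP1, had 2 of 8 genes measured, and its summed level was 6.43 to 6.52 in control cells and 6.59 to 6.76 in silenced cells. Of these, LUM, which defines fibroblasts, was below the lower quartile of all transcript clusters. THY1 had a log2 fold change of 0.26 (standard error 0.086), with all silenced arrays above the controls. The leukocyte list, with 2 of 5 genes measured, was at 7.55 to 7.65 and 7.23 to 7.40, and the endothelial list, with 3 of 5, was at 6.95 to 7.10 and 7.07 to 7.17. In these lists, PECAM1 of endothelial cells was at 0.46 on the same scale (standard error 0.14) and CD68 of macrophages was at -0.30 (standard error 0.086), both with groups apart, and neither these nor THY1 passed the adjusted threshold in limma. Their part in the values of LTBP1, FBN1 and BAMBI was not tested.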

How the data were processed

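Biotin-labelled cDNA from total RNA was measured on Affymetrix Human Gene 2.0 ST arrays. The authors processed the arrays in Partek 6.6 by RMA (background correction, quantile normalization, median polish, log transform), and the deposited values were taken as log2 expression, since no source names the base and the highest value, 13.7, is too high for log10 or natural logs. Changes are therefore relative to the other transcripts of an array, and those of dim transcripts may be compressed. No filter was applied. Names came from the platform annotation, updated through RefSeq gene identifiers: 1 symbol was found for 16098 clusters, several for 0 and none here for 37519. A linear model with silencing as its single factor was fitted to all 53617 clusters in limma (version 3.58.1, R 4.3.3). The p-values were adjusted by Benjamini-Hochberg over all of them. On simulated data the fit recovered 31.3% of 1.5-fold changes, 85.1% of 2-fold changes and 100% of 4-fold changes, with 16 false calls. A difference near 1.5-fold that did not pass may therefore have been missed. The study's methods use an unmoderated analysis of variance with a factor not named, which was run as an alternative. With 3 arrays a group an exact permutation test cannot give a p under 0.1. The study describes the arrays as independent biological replicates without saying whether cells were transduced separately for each, and p-values cover the spread between these samples alone.

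The members and gene lists were chosen with earlier results of these data known. Named genes were all members, in each list those past the threshold and the 2 largest other differences, and the 5 genes most like LTBP1. Alternatives concerned the replicate labels, the variance model, normalization, the clusters used, array weights, the thresholds of the study's methods and leaving out each array. The count by those thresholds under every other setting was added after seeing the data.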

Additional observations from a re-analysis of the deposited data

How the results depend on the processing

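Most of the 19 alternatives tried for a gene whose groups lay apart could not reverse its direction. The log2 fold changes of LTBP1, LTBP2, FBN1 and BAMBI kept their sign in all of them. The members that lay close to 0 did not: with 1 array left out, LTBP3 ran from -0.012 to 0.163, LTBP4 from -0.038 to 0.068 and FBN2 from -0.057 to 0.065, and FBN2 was at 0.0079 with arrays 2 and 2d as a random block and 0.0095 with array weights. LTBP3 and LTBP4 turned negative without control array 2, LTBP4 also without silenced array 1, and FBN2 turned positive without control array 1 and without silenced array 1. Where 0 members passed the adjusted threshold in limma, 1 passed (LTBP1) with arrays 2 and 2d as a random block, with trend and robust variances, with clusters above the median level and with array weights, and 2 passed (LTBP1 and FBN1) among named clusters only, where fewer p-values are adjusted for. The random block rested on an estimated correlation of -0.24 between arrays 2 and 2d. Leaving out any array gave 0. By the thresholds of the study's methods 3 members passed, and 1 to 3 when an array was left out, the 1 without control array 1. The unmoderated model with the replicate label as second factor gave 2. Because the members were chosen with this comparison known, these counts describe the settings and do not test the members.

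Over all transcript clusters 110 passed, against 12 with arrays 2 and 2d averaged, 223 with the random block, 0 in the unmoderated models, 15 to 48 when an array was left out, and 712 by the thresholds of the study's methods, by which 2 genes of the network lists passed in place of 0. With the replicate block 40 passed and no member did. The deviations of same-numbered arrays from their group means had correlations of 0.01 for array 1, 0.00 for 2 and 0.09 for 2d. Differently numbered arrays of the 2 groups had -0.07 to 0.06, so the value for 2d was the highest of all. All these correlations were small, and the labels are not taken to pair the samples. The cause of the differences in count between settings was not tested. No scaling moved the median of all clusters by more than 0.01.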
